A study of Mus musculus with 19 samples.

Results

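The comparison is that of anti-CTLA-4 with IgG in control tumours, which are 4T1 tumours without the knockdown of lactate dehydrogenase A (Ldha) that the rest of the series carries. The members were chosen by tumour type, and they are 9 of the 19 samples of the series. The 4T1 line is a mouse mammary carcinoma line that grows in BALB/c mice with an intact immune system. All 19 samples came from BALB/cAnN mice implanted with 1000000 tumour cells. The control samples carry the line labelled 4T1-Sc, and the other 10 carry the LDHA-KD line, labelled 4T1-KD. Of the control samples, 5 were treated with an anti-CTLA-4 antibody (replicates 1 to 5) and 4 with control IgG (replicates 1, 3, 4 and 5). The first of 3 doses was given 3 days after implantation, and the doses were 3 days apart. No label gives the age of the mice, the antibody clone and dose, how the knockdown was made, or whether a line is 1 clone. Whether every sample is its own animal is not stated in the labels, and the p-values cover only the spread among samples, which may be technical. Polyadenylated RNA of frozen tumour tissue was sequenced, and 16763 of 46983 genes had enough counts to be tested.

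CTLA-4 is an inhibitory receptor of T cells. It binds CD80 and CD86 on antigen-presenting cells more tightly than the activating receptor CD28 does, and so limits costimulation. Regulatory T cells, defined by the transcription factor FOXP3, carry much of it, and antibodies against it are known to expand and activate T cells in several tumour models. In bulk tissue, fewer cells of a type and less RNA per cell cannot be told apart. The design asks what the antibody does to expression in tumours that differ in Ldha.

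Gene counts per library, in units of 1000000, were 36.9 ± 2.87 (SD, n = 4) with IgG and 38.7 ± 3.14 (SD, n = 5) with anti-CTLA-4, a difference with a two-sided exact permutation p = 0.365 (adjusted over 3 library measures, 0.619). The share of records outside genes averaged 9.71% with IgG and 9.53% with anti-CTLA-4 (exact permutation p = 0.683), and the share that did not align uniquely 12.5% and 13.1% (exact permutation p = 0.413). The smallest p these 9 libraries allow is 0.00794. On the first principal component of the 9 libraries, which held 29.4% of the variance, anti-CTLA-4 replicates 3 and 5 lay at 35.5 and 40.1 and replicate 1 at 18.6, while the other 6 libraries lay between -35.6 and -4.11. Ldha, the gene the knockdown targets (chromosome 7, 46841475 to 46855627, plus strand), was at 1926, 1624, 1567 and 1283 CPM in the IgG libraries and 2244, 1524, 1955, 1910.3 and 1935 CPM in the anti-CTLA-4 libraries, so it was expressed in every control library. The tumour cell keratin genes Krt8 and Krt18 and the adhesion gene Epcam were present in every library, with Krt8 between 1015 and 1305 CPM. CPM is the count of a gene per 1000000 counts of the library after scaling.

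The promoters below belong to the blockade's target and to 3 T cell genes with some of the smallest p-values of the comparison, and they show what lies at the start of genes that were higher together. Each is the stretch from 250 bases before to 50 after the RefSeq gene start (GRCm38.p6), read 5′ to 3′ along the gene's own strand. Capitals mark a match, on either strand, to core motifs of factor families that act in T cells: TGTGGT for RUNX, GGAAGT for ETS and AGATAA for GATA. The positions are chr1:60908775-60909074, plus strand for Ctla4, chr9:44981536-44981835, plus strand for Cd3d, chr9:44980382-44980681, minus strand for Cd3g and chr4:129573592-129573891, minus strand for Lck.
Ctla4: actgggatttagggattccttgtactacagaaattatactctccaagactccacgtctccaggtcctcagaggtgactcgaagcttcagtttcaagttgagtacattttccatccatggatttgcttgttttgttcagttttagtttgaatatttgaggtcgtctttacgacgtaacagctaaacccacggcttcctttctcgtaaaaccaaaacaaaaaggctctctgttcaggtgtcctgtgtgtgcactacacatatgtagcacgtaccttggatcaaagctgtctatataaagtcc
Cd3d: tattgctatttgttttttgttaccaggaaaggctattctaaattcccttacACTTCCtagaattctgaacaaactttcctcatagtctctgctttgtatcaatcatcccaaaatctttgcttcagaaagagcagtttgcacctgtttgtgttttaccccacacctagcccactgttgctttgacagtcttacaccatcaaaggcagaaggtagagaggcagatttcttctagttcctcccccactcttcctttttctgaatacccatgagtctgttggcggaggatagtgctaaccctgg
Cd3g: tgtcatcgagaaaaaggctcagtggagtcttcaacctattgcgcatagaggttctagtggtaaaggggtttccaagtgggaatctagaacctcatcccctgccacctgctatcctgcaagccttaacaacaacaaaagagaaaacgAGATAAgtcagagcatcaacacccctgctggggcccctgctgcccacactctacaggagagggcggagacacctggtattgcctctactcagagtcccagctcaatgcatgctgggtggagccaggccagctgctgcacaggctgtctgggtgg
Lck: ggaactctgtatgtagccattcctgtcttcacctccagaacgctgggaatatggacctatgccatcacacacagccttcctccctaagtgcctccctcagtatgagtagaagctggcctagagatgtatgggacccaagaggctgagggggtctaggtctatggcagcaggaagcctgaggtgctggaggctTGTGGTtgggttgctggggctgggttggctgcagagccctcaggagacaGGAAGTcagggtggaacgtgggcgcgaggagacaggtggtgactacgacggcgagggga
None of these letters occurred in the Ctla4 window, which starts from a RefSeq entry 22025 bases into the longer GENCODE gene. Cd3d had 1 ETS match, Cd3g 1 GATA match, and Lck 1 RUNX and 1 ETS match, and Lck has 2 entries of which the one at the GENCODE start is shown. Cd3d and Cd3g are neighbours that are transcribed away from each other. Of the 22 T cell genes listed here, 12 had a promoter in the RefSeq table. Among those 12, the RUNX letters occurred in 2, the ETS letters in 6 and the GATA letters in 2, against 16.8%, 23.8% and 11.2% of all 32851 promoters of this length. A match is a description of the letters and not evidence of binding.

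No gene passed the threshold of 0.05 with edgeR's quasi-likelihood test and Benjamini-Hochberg adjustment over the 16763 genes. The percentage called was therefore 0, and the smallest adjusted p was 0.385. At an unadjusted p under 0.05 there were 1346 genes (8.03%), of which 787 (4.69%) were higher and 559 (3.33%) lower with anti-CTLA-4. All 5 anti-CTLA-4 libraries lay above all 4 IgG libraries for 93 genes (0.555%) and below them for 120 (0.716%). A given separation of this kind arises in 0.00794 of the 126 splits of these libraries, which is above both shares. A lack of overlap is therefore given below only as a description of the values. DESeq2, run as an alternative, called 11 genes higher (0.0656% of the 16759 with an adjusted p) and 0 lower, and limma voom called 0 in either direction. The 11 genes of DESeq2 were Trbc2, Cd3d, Cd3g, Cd2, Zap70, Lck, Icos, Gimap3, Gimap7, Penk and Thrsp. Of these, 6 encode parts of the T cell receptor complex or its proximal signalling and adhesion machinery. Thrsp, a regulator of fatty acid synthesis, was named because DESeq2 called it. It reached 27.0 CPM in anti-CTLA-4 replicate 5, and its groups overlapped. The values below are therefore estimates with intervals, and no gene is called changed by edgeR.

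**Figure D1:**
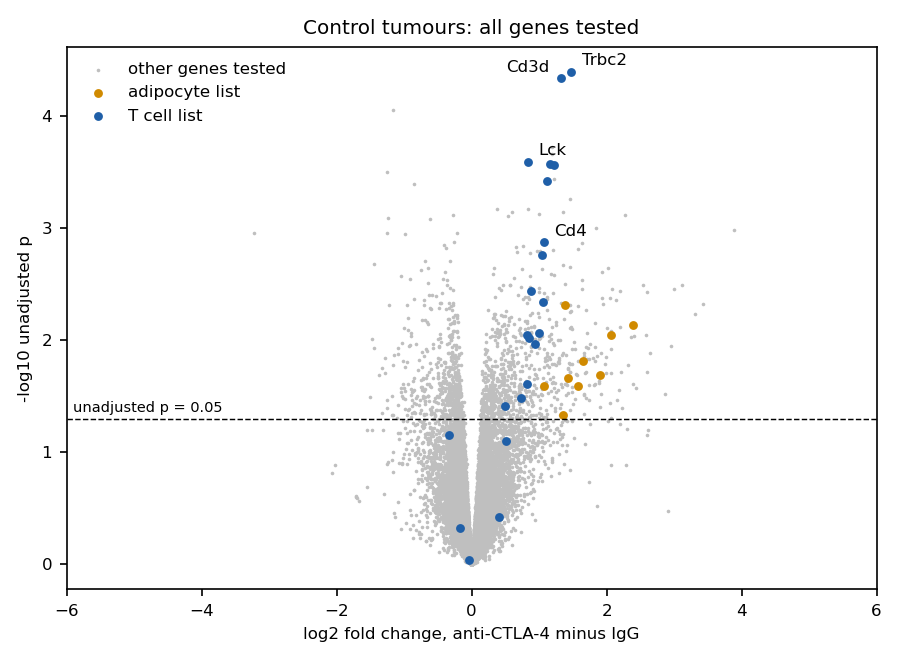
Log2 fold change of anti-CTLA-4 against IgG in control tumours (x axis) against the unadjusted edgeR p on a -log10 scale (y axis), with 1 point per gene tested, T cell list genes in blue, adipocyte list genes in orange and a dashed line at an unadjusted p of 0.05. The T cell genes Trbc2 (1.47) and Cd3d (1.32) are at the top on the higher side, and none of the points passes the adjusted threshold of 0.05.

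Ctla4 itself, on chromosome 1 beside Cd28 and Icos (chromosome 1, 60887000 to 60915832, plus strand), was at 3.704, 5.28, 3.003 and 3.28 CPM in the IgG libraries and 6.17, 5.38, 6.25, 6.09 and 8.63 CPM in the anti-CTLA-4 libraries. Every anti-CTLA-4 library was above every IgG library, although replicate 2 with the antibody exceeded IgG replicate 3 by little. The log2 fold change was 0.77 (SE 0.21, 95% interval 0.34 to 1.201), with an adjusted p of 0.601 in edgeR. Icos, a costimulatory receptor of activated T cells (chromosome 1, 60977927 to 61000320, plus strand), was at 3.25, 9.34, 5.600 and 4.45 CPM in the IgG libraries and 10.8, 12.2, 13.9, 8.55 and 17.1 CPM in the anti-CTLA-4 libraries. Its groups overlapped through IgG replicate 3 only, which was above anti-CTLA-4 replicate 4. The log2 fold change was 1.14 (SE 0.26, 95% interval 0.61 to 1.68). Cd28, the activating counterpart of CTLA-4, was higher by 1.06 (SE 0.33) at levels under 2.2 CPM. The ligands Cd80, Cd86 and Icosl, which antigen-presenting cells express, had log2 fold changes of 0.04 (SE 0.18), -0.04 (SE 0.13) and -0.01 (SE 0.15). The difference between ligands and receptors was not tested. In the 6 genes of the CTLA-4 and CD28 axis, 3 (50%) had an unadjusted p under 0.05, all 3 of them receptors and all higher. Of all genes, 4.69% were higher at that p. The median of the 6 was 0.40, against -0.00314 over all genes. Cd28 is also on the T cell list, Ctla4 on the regulatory T cell list and Icos on the checkpoint list, so the counts of these lists are not independent.

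Trbc2 and Cd3d, genes of the T cell receptor complex, had the smallest p-values of the comparison. Trbc2, a constant segment of the T cell receptor beta chain (chromosome 6, 41546730 to 41548352, plus strand), was at 1.402, 2.23, 2.43 and 1.397 CPM in the IgG libraries and 5.53, 3.49, 7.47, 2.82 and 6.697 CPM in the anti-CTLA-4 libraries. All anti-CTLA-4 libraries were above all IgG libraries, and the log2 fold change was 1.47 (SE 0.28, 95% interval 0.89 to 2.06) with an adjusted p of 0.385 in edgeR. Its near-identical neighbour Trbc1 was at 8.15, 4.09, 3.301 and 9.75 CPM in the IgG libraries and 5.44, 5.24, 5.86, 4.77 and 6.67 CPM in the anti-CTLA-4 libraries, with overlapping groups and a log2 fold change of -0.18 (SE 0.24). Reads that fit both copies could not be assigned to either, so the split between Trbc1 and Trbc2 is uncertain. The V segments of the beta chain, summed over 35 genes, came to 0.688, 2.26, 1.704 and 1.197 CPM in the IgG libraries and to 1.35, 2.72, 3.92, 1.85 and 3.32 CPM in the antibody libraries. These sums overlapped between the groups, and they rest on 26 to 151 counts per library. Those of the alpha chain, over 128 genes, ran from 0.106 to 0.812 CPM with IgG and from 0.295 to 0.773 CPM with the antibody, on 4 to 33 counts.

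The CD3 chains, which carry the signal of the receptor, were higher as well. Cd3d (chromosome 9, 44981786 to 44987339, plus strand) was at 0.979, 2.38, 1.54 and 1.05 CPM in the IgG libraries and 3.56, 2.93, 5.19, 2.76 and 4.13 CPM in the anti-CTLA-4 libraries. The groups did not overlap, and the log2 fold change was 1.32 (SE 0.25, 95% interval 0.79 to 1.85) with an adjusted p of 0.385 in edgeR. Cd3g (chromosome 9, 44969572 to 44980431, minus strand) was at 1.96, 4.99, 5.06 and 2.97 CPM in the IgG libraries and 7.73, 6.27, 10.1, 5.71 and 10.9 CPM in the anti-CTLA-4 libraries, again without overlap, with a log2 fold change of 1.118 (SE 0.26, 95% interval 0.57 to 1.66). Cd3e and Cd247, the epsilon and zeta chains, had 0.94 (SE 0.33) and 0.50 (SE 0.23) with overlapping groups. The kinases and adaptors that act on these chains followed the same direction. Lck, the kinase that phosphorylates CD3 and zeta (chromosome 4, 129548344 to 129573641, minus strand), was at 5.13, 6.35, 5.63 and 4.59 CPM in the IgG libraries and 8.85, 8.76, 12.7, 6.65 and 11.3 CPM in the anti-CTLA-4 libraries. It was higher in every anti-CTLA-4 library than in every IgG library, with a log2 fold change of 0.83 (SE 0.19, 95% interval 0.44 to 1.22). Zap70, the kinase recruited next, had 1.22 (SE 0.27), and the adaptor Lat 1.04 (SE 0.29). Cd2, an adhesion receptor of T cells, had 1.17 (SE 0.26).

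**Figure D2:**
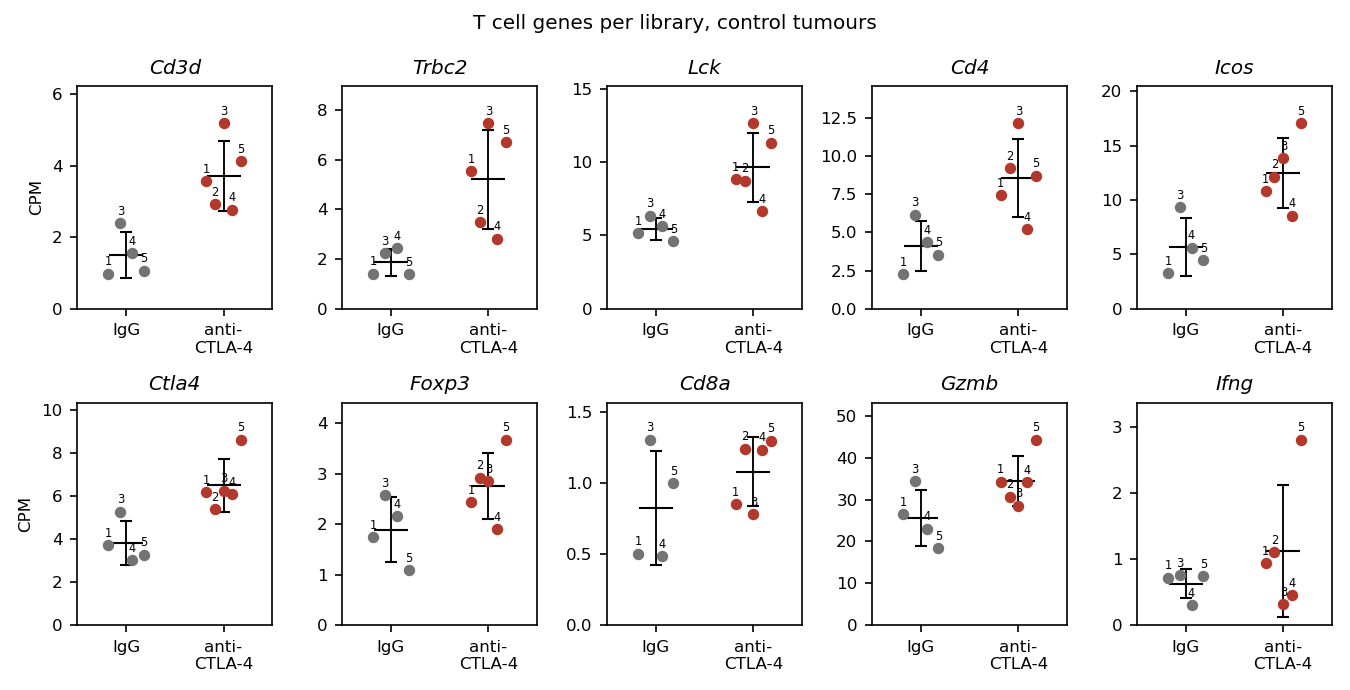
Level in CPM (y axis, linear from 0) of 10 T cell genes in each of the 9 control libraries, with points numbered by replicate and bars for the mean and SD of the group. The highest library is anti-CTLA-4 replicate 3 or 5 for each gene except Cd8a, where it is IgG replicate 3.

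The coreceptors differed in size. Cd4, the coreceptor of helper and regulatory T cells, was at 2.28, 6.18, 4.36 and 3.54 CPM in the IgG libraries and 7.44, 9.22, 12.2, 5.202 and 8.75 CPM in the anti-CTLA-4 libraries. Only IgG replicate 3 and anti-CTLA-4 replicate 4 overlapped, and the log2 fold change was 1.07 (SE 0.29, 95% interval 0.47 to 1.67). Cd8a, the coreceptor of cytotoxic T cells, was at 0.503, 1.31, 0.487 and 0.998 CPM in the IgG libraries and 0.852, 1.24, 0.778, 1.23 and 1.297 CPM in the anti-CTLA-4 libraries. Its libraries were mixed between the groups, and its log2 fold change of 0.40 (SE 0.44, 95% interval -0.52 to 1.32) had an interval that included both 0 and the value of Cd4. Cd8b1, the partner chain of CD8, had -0.04 (SE 0.37). The difference between Cd4 and Cd8a was not tested.

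All 22 members of the T cell list were measured. Of these, 19 had a positive log2 fold change. An unadjusted p under 0.05 was reached by 17 (77.3%) in the higher direction, where 4.69% of all genes reached it, and by 0 in the lower direction. Markers of the same cell type can vary together across the same libraries, so these members are not independent observations. For 4 of the 22 (Trbc2, Cd3d, Lck and Cd3g) every antibody library was above every IgG library, as for 0.555% of all genes. The list's median was 0.86, and its members ran from -0.33 for Txk, a kinase shared with other lymphocytes, to 1.47 for Trbc2. The summed level of the list was 36.0 to 63.9 CPM with IgG and 58.1 to 109.9 CPM with anti-CTLA-4. IgG replicate 3 was thus above anti-CTLA-4 replicate 4. With anti-CTLA-4 replicates 3 and 5 both left out, 10 of the 22 had an unadjusted p under 0.05 and the median was 0.60. The log2 fold changes of Trbc2, Cd3d, Cd3g and Lck were then 1.07, 1.05, 0.81 and 0.57. That pair had the highest T cell sums, so leaving it out lowers these values by itself and also shrinks the group. Leaving out 1 library at a time gave medians from 0.71 (without IgG replicate 1) to 1.16 (without IgG replicate 3). The libraries with the highest T cell sums, anti-CTLA-4 replicates 3 and 5, also had the highest sums of adipocyte transcripts, given below, and the part of these in the T cell result was not tested.

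Among the 13 regulatory T cell genes, 5 (38.5%) had an unadjusted p under 0.05, all higher, where 4.69% of all genes did, and the median was 0.57. Those 5 were Tnfrsf18, Ctla4, Tnfrsf9, Tnfrsf4 and Il2ra. Foxp3, the factor that defines the cells (chromosome X, 7573644 to 7595245, plus strand), was at 1.75, 2.58, 2.16 and 1.08 CPM in the IgG libraries and 2.44, 2.93, 2.85, 1.904 and 3.68 CPM in the anti-CTLA-4 libraries. The groups overlapped, and the log2 fold change was 0.54 (SE 0.31, 95% interval -0.11 to 1.197) with an adjusted p of 0.653 in edgeR. Tnfrsf18, or GITR, a costimulatory receptor abundant on regulatory T cells, was at 1.64, 3.34, 3.19 and 2.54 CPM in the IgG libraries and 5.06, 4.19, 5.29, 3.14 and 6.21 CPM in the anti-CTLA-4 libraries. Its log2 fold change was 0.83 (SE 0.21, 95% interval 0.40 to 1.27), and 1 of the 5 anti-CTLA-4 libraries was below an IgG library. Tnfrsf4, or OX40, had 0.79 (SE 0.24) and Il2ra, the interleukin 2 receptor alpha chain, 0.59 (SE 0.26). Ccr8, which binds chemokines and is found on regulatory T cells in tumours, had 0.51 (SE 0.28), and Ikzf2, or Helios, -0.02 (SE 0.14). Several of these genes are not confined to regulatory T cells, and Tnfrsf9 and Ikzf2 had 50.8 to 118 and 35.5 to 60.9 CPM with IgG in tumours that had under 3 CPM of Foxp3. Without anti-CTLA-4 replicates 3 and 5, 3 of the 13 had an unadjusted p under 0.05.

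Checkpoint and activation genes held 6 of 14 members (42.9%) with an unadjusted p under 0.05, all higher, against 4.69% of all genes, with a median of 0.48. Icos and Tnfrsf4 are among the 6 and were counted in lists above too. Pdcd1, the gene of PD-1, was at 3.02, 3.31, 3.52 and 1.85 CPM in the IgG libraries and 4.61, 3.68, 5.53, 3.59 and 4.62 CPM in the anti-CTLA-4 libraries. Every anti-CTLA-4 library was above every IgG library, by as little as 3.59 against 3.52 CPM, and the log2 fold change was 0.59 (SE 0.24). Tox, a transcription factor of chronically stimulated T cells, also did not overlap, with 1.47 (SE 0.47) at levels between 0.0794 and 0.543 CPM, near the floor of 3 counts. Havcr2, or TIM-3, had 0.64 (SE 0.27) and Tigit 0.49 (SE 0.28), both receptors that other leukocytes share. Lag3, an inhibitory receptor of exhausted T cells, had 0.12 (SE 0.28), and Btla -0.29 (SE 0.23). The count was 3 without anti-CTLA-4 replicate 3, and 1 without replicates 3 and 5. Genes of naive and memory T cells had 4 of 10 members at that p, all higher (median 0.45), among them the chromatin organiser Satb1 at 0.82 (SE 0.26). Tcf7, the factor of stem-like T cells, had 0.07 (SE 0.12). That count was 2 without anti-CTLA-4 replicate 5 and 0 without replicates 3 and 5, when the median was 0.15.

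Penk and 2 GIMAP genes were the other leading genes. Penk, the precursor of the enkephalin peptides (chromosome 4, 4133531 to 4138819, minus strand), was at 3.55, 3.92, 3.63 and 2.77 CPM in the IgG libraries and 7.35, 5.13, 11.1, 4.72 and 11.3 CPM in the anti-CTLA-4 libraries. The groups did not overlap, and the log2 fold change was 1.19 (SE 0.26, 95% interval 0.65 to 1.73). Gimap7 and Gimap3, GTPases of lymphocyte survival that lie together on chromosome 6, had 1.18 (SE 0.26) and 1.22 (SE 0.28). The family as a whole, a list added after these 2 had been seen, was uneven, with a median of 0.11. Of 8 members, 3 (37.5%) had an unadjusted p under 0.05, against 4.69% of all genes higher at that p. Gimap4, Gimap5, Gimap6, Gimap8 and Gimap9 lay between -0.05 and 0.17. GIMAP genes are close relatives, so reads shared by several of them may be missing from the counts. Isg20, an exonuclease induced by interferon, was at 68.1, 59.5, 57.1 and 47.4 CPM in the IgG libraries and 85.6, 66.2, 79.6, 70.1 and 75.1 CPM in the anti-CTLA-4 libraries and had 0.38 (SE 0.09, 95% interval 0.18 to 0.57).

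Cytotoxic genes were divided in sign, with 11 positive and 5 negative. Of 16 members, 5 (31.2%) had an unadjusted p under 0.05, all higher, against 4.69% of all genes. The median was 0.51, and it was 0.31 without anti-CTLA-4 replicate 5 and 0.27 without replicates 3 and 5. Gzmb, or granzyme B, a protease that kills target cells (chromosome 14, 56258838 to 56262260, minus strand), was at 26.5, 34.3, 23.02 and 18.3 CPM in the IgG libraries and 34.3, 30.7, 28.5, 34.2 and 44.3 CPM in the anti-CTLA-4 libraries, a log2 fold change of 0.43 (SE 0.19, 95% interval 0.02 to 0.83) with overlapping groups. Ccl5, a chemokine of activated T and natural killer cells, had 1.003 (SE 0.30), and Cst7, a cystatin of cytotoxic cells, 0.68 (SE 0.19). Gzmk and Tbx21, the factor T-bet, had 1.45 (SE 0.55) and 1.19 (SE 0.45) at levels under 0.7 CPM. The other granzymes Gzmc, Gzmd, Gzme and Gzmf were each at negative values, from -0.81 for Gzmc to -0.53 for Gzmd. None of them had an unadjusted p under 0.05. Prf1, or perforin, had 0.08 (SE 0.43). Without IgG replicate 1 or without anti-CTLA-4 replicate 5 the count was 3 in each case, and without replicates 3 and 5 it was 2.

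Ifng, which encodes interferon-gamma (chromosome 10, 118441046 to 118445892, plus strand), was at 0.714, 0.754, 0.298 and 0.741 CPM in the IgG libraries and 0.9405, 1.100, 0.311, 0.456 and 2.81 CPM in the anti-CTLA-4 libraries. Only anti-CTLA-4 replicate 5 stood far above the rest, and the log2 fold change of 0.83 (SE 0.49, 95% interval -0.20 to 1.85) had an interval that included 0. Natural killer cell receptors had 1 of 8 tested members at an unadjusted p under 0.05, Klrd1 (2 more were too low to test), a share of 12.5% that rests on this gene where 4.69% of all genes reached that p, and a median of 0.14, with Ncr1 at 0.61 (SE 0.37) and Klrk1 at -0.05 (SE 0.31). That median ran from -0.01 without IgG replicate 4 to 0.51 without IgG replicate 3, and the count was 0 without IgG replicate 1 or 4, anti-CTLA-4 replicate 5 or anti-CTLA-4 replicates 3 and 5, and 2 without anti-CTLA-4 replicate 4. Among helper T cell cytokines, 7 of 12 could be tested. Il5, the growth factor of eosinophils, was at 0.238, 0.203, 0.0541 and 0.05702 CPM in the IgG libraries and 0.4702, 0.258, 0.363, 0.349 and 0.513 CPM in the anti-CTLA-4 libraries, without overlap and with 1.46 (SE 0.57). Its values in IgG replicates 4 and 5 were below the floor of 3 counts, 0.0807 and 0.0865 CPM, so this estimate rests on few reads. Il13, another type 2 cytokine, had 0.79 (SE 0.33) and Il4 -0.19 (SE 0.41). Il5 and Il13 were the 2 members (28.6%) with an unadjusted p under 0.05. That count was 0 without IgG replicate 4 or 5 and 1 without anti-CTLA-4 replicate 1 or 5 or without replicates 3 and 5. The interleukin 17 genes Il17a and Il17f were at most 0.0294 and 0.318 CPM in any control library.

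B lineage transcripts were low. Of 9 tested immunoglobulin and plasma cell genes, 9 had positive values (median 0.60). Of these, 2 (22.2%) had an unadjusted p under 0.05, where 4.69% of all genes were higher at that p. Igkc, the kappa constant region, was at 0.423, 0.696, 0.676 and 1.03 CPM in the IgG libraries and 1.26, 1.26, 2.57, 0.885 and 7.602 CPM in the anti-CTLA-4 libraries. Its log2 fold change was 1.93 (SE 0.56), and 1.09 without anti-CTLA-4 replicate 5, where Jchain, the joining chain of secreted immunoglobulin, was also highest at 1.84 CPM. Kappa V segments, summed over 162 genes, were 0.185 to 0.435 CPM with IgG and 0.134 to 1.87 CPM with the antibody. The list's median was 0.27 without anti-CTLA-4 replicate 5 and 1.31 without IgG replicate 5. Its count was 1 without IgG replicate 1 or 4 or anti-CTLA-4 replicate 5, and 0 without anti-CTLA-4 replicates 3 and 5. The B cell list had 1 of 8 tested members (12.5%) at that p, Pax5, and 0 when any of several single libraries was left out, and Ms4a1, or CD20, and Cd79a had -0.03 (SE 0.46) and -0.72 (SE 0.38).

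Genes that interferon-gamma induces pointed the same way but with wide spread. Of 23, 22 (95.7%) were positive, where 49.1% of all genes were, with a median of 0.42. An unadjusted p under 0.05 was reached by 3 (13.0%), all higher, against 4.69% of all genes. Those were Ido1, an enzyme of tryptophan breakdown, at 0.93 (SE 0.40), Cd274, or PD-L1, at 0.75 (SE 0.33) and the signalling inhibitor Socs1 at 0.52 (SE 0.22). Cd274 was at 47.1, 65.4, 33.5 and 33.7 CPM in the IgG libraries and 64.7, 70.7, 55.9, 56.6 and 129.8 CPM in the anti-CTLA-4 libraries. Replicate 5 stood far above the other 4 anti-CTLA-4 libraries, which lay among or just above the IgG libraries. The chemokine Cxcl9 was at 38.00, 44.9, 13.3 and 37.6 CPM in the IgG libraries and 30.4, 58.5, 12.7, 35.1 and 104 CPM in the anti-CTLA-4 libraries, with the lowest value in an anti-CTLA-4 library and the highest in another. Without replicate 5 the median of the list was 0.07 and 0 members had an unadjusted p under 0.05. Without anti-CTLA-4 replicate 3 there were 10 and the median was 0.58. The count was 5 without IgG replicate 3, 1 without IgG replicate 4 and 0 without IgG replicate 5 or without both anti-CTLA-4 replicates 3 and 5.

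Antigen presentation by MHC class I had 13 of 13 positive values with a narrow range, from 0.20 for Psmb10 to 0.47 for Psmb9, both subunits of the immunoproteasome. The median was 0.32, and 4 (30.8%) had an unadjusted p under 0.05, against 4.69% of all genes higher at that p. The class I gene H2-T23 was at 285, 269.6, 196 and 180.2 CPM in the IgG libraries and 384, 285, 249.7, 274 and 377 CPM in the anti-CTLA-4 libraries, with overlapping groups and 0.43 (SE 0.17). The count ranged widely when 1 library was left out. It was 0 without IgG replicate 4 or 5 or anti-CTLA-4 replicate 1 or 5, and it was 8, 7 and 9 without IgG replicate 1, IgG replicate 3 and anti-CTLA-4 replicate 3. Leaving out LDHA-KD IgG replicate 1, which enters through the shared spread, gave 2. Class II genes had 0 of 10 at that p and a median of 0.11, with Cd74, the invariant chain, at 0.14 (SE 0.26). Type I interferon response genes had 19 of 20 positive values, a median of 0.22 and 3 (15%) at that p (Isg15, Rsad2 and Oas3). That count was 13 without IgG replicate 1. It was 0 without IgG replicate 4 or 5, anti-CTLA-4 replicate 5, or anti-CTLA-4 replicates 3 and 5. It was 1 without anti-CTLA-4 replicate 3, and 5 when replicate 2 or 3 of the anti-CTLA-4 group in LDHA-KD tumours was left out.

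Neutrophil genes had positive values throughout. All 15 were above 0, with a median of 0.97 against -0.00314 over all genes, and 7 (46.7%) had an unadjusted p under 0.05 where 4.69% of all genes did. S100a9, a calcium-binding alarmin abundant in neutrophils (chromosome 3, 90692632 to 90695721, minus strand), was at 219, 212, 223 and 144 CPM in the IgG libraries and 364, 219.6, 439, 435 and 648 CPM in the anti-CTLA-4 libraries. Anti-CTLA-4 replicate 2 lay within the IgG range and the other 4 were above it, with a log2 fold change of 1.08 (SE 0.33, 95% interval 0.39 to 1.76). Wfdc21, a secreted protease inhibitor, was at 4.63, 3.98, 4.57 and 4.904 CPM in the IgG libraries and 7.73, 5.24, 12.01, 6.25 and 16.6 CPM in the anti-CTLA-4 libraries, without overlap and with 1.08 (SE 0.30). Il1b, the inflammatory cytokine interleukin 1 beta, also did not overlap: it was at 162, 177, 154 and 156 CPM in the IgG libraries and 212, 181, 200.3, 253 and 315 CPM in the anti-CTLA-4 libraries, with 0.51 (SE 0.26). Ltf, the gene of lactoferrin, a granule protein that milk also contains, had 1.82 (SE 0.60). Ly6g, the surface marker of mouse neutrophils, had 0.72 (SE 0.45) at 0.228 to 1.24 CPM, and the receptor gene Cxcr2 had 0.66 (SE 0.37). Without anti-CTLA-4 replicate 5 the count was 4, and without replicates 3 and 5 it was 1 with a median of 0.40.

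Chemokines that attract myeloid cells had 13 of 14 positive values, a median of 0.54 and 6 (42.9%) at an unadjusted p under 0.05. Those 6 were all higher, where 4.69% of all genes were higher at that p. Ccl8, a ligand of monocytes and other leukocytes, was at 339, 568, 684 and 353 CPM in the IgG libraries and 1076, 674, 1095, 814 and 1230.1 CPM in the anti-CTLA-4 libraries, with 1.01 (SE 0.27). The groups overlapped only at IgG replicate 4 and anti-CTLA-4 replicate 2. The neutrophil attractants Cxcl1, Cxcl2 and Cxcl3 had 0.75 (SE 0.31), 1.22 (SE 0.53) and 1.82 (SE 0.68). The count was 2 without IgG replicate 5, 3 without anti-CTLA-4 replicate 5 and 1 without anti-CTLA-4 replicates 3 and 5. Among chemokines of lymphocytes, Cxcl13, the B cell attractant, was at 0.291, 0.435, 0.4599 and 0.684 CPM in the IgG libraries and 1.18, 1.100, 2.46, 0.5900 and 1.69 CPM in the anti-CTLA-4 libraries, with 1.58 (SE 0.43). Of 11 tested members, 2 (18.2%) had an unadjusted p under 0.05. That list's median was 0.52, and 0.16 without anti-CTLA-4 replicate 5. Its count was 4 without IgG replicate 3 and 1 without anti-CTLA-4 replicates 3 and 5.

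Suppressive myeloid genes had 4 of 11 members (36.4%) at that p, all higher, against 4.69% of all genes (median 0.57). Of these 4, S100a8 and S100a9 are also on the neutrophil list. Nos2, the inducible nitric oxide synthase, had 1.17 (SE 0.50), and Arg1, or arginase 1, 0.24 (SE 0.25). The count was 2 without IgG replicate 5 or anti-CTLA-4 replicate 5, and 1 without anti-CTLA-4 replicates 3 and 5. Macrophage genes showed no common direction: 6 of 16 were positive, and the median was -0.03. In each direction 1 gene (6.25%) had an unadjusted p under 0.05, where 4.69% of all genes were higher and 3.33% lower. Those were Ms4a7 at 0.32 (SE 0.14) and Adgre1, the gene of F4/80, at -0.40 (SE 0.19). Cx3cr1, a chemokine receptor of monocytes and macrophages, was at 8.81, 9.89, 9.06 and 59.5 CPM in the IgG libraries and 4.03, 17.00, 3.09, 11.8 and 3.05 CPM in the anti-CTLA-4 libraries, with -1.47 (SE 0.75), and with -0.24 when IgG replicate 5 was left out. Without IgG replicate 1, 3 macrophage genes were lower at that p, and without IgG replicate 5 or anti-CTLA-4 replicate 1, 3 or 5 there were 0 in either direction. Dendritic cell, mast cell and eosinophil lists had 0 members at that p, with medians of 0.24, 0.06 and -0.44. With 1 library left out these ran from 0.07 to 0.45, from -0.07 to 0.14 and from -0.77 to 0.09, so their size or sign turned on single libraries such as IgG replicate 1 or 3, and 3 dendritic cell genes reached it without IgG replicate 3 or anti-CTLA-4 replicate 4.

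**Figure D3:**
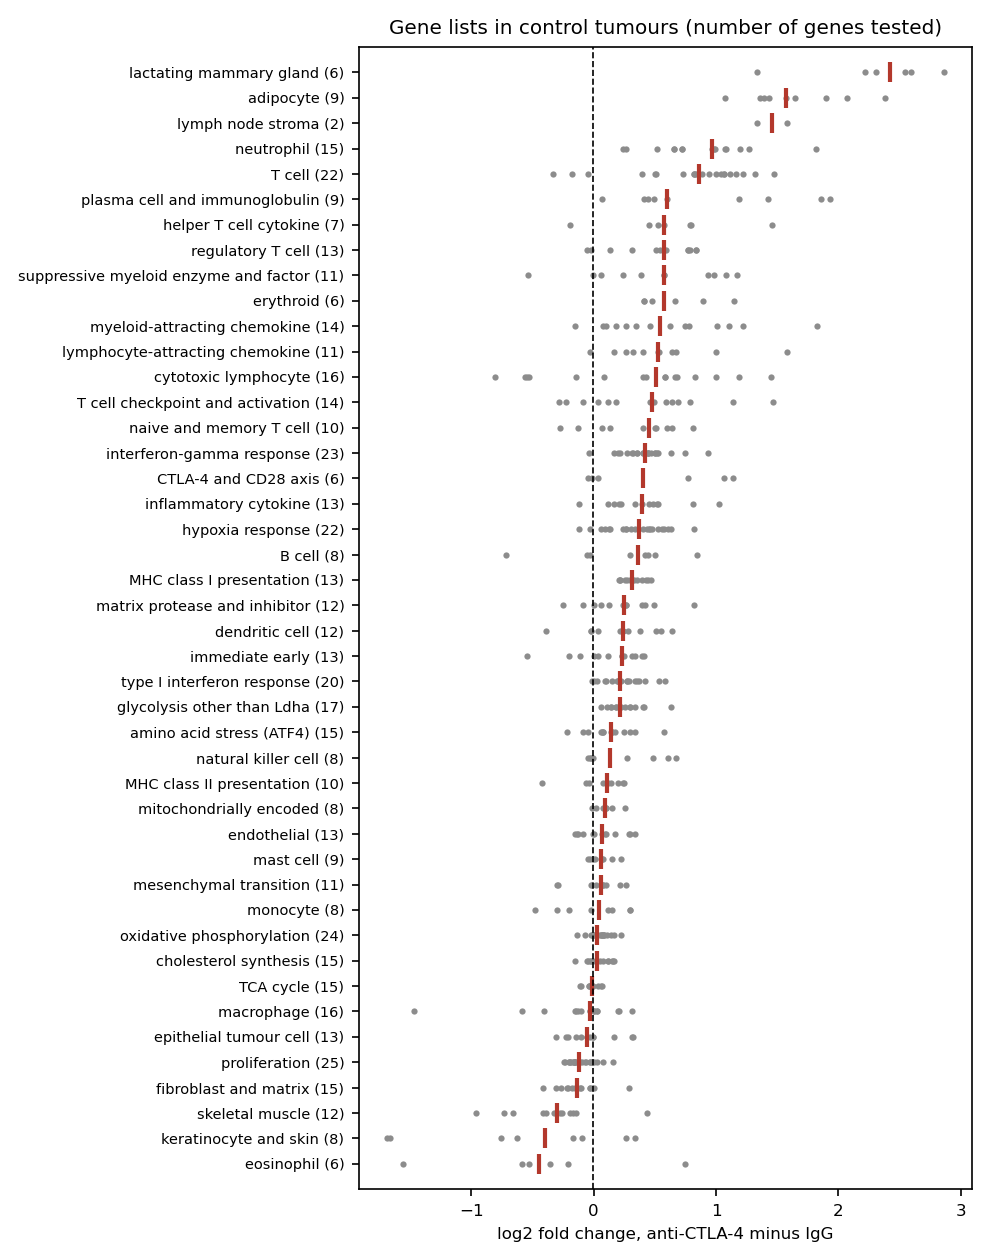
Log2 fold changes of the members of each gene list in control tumours (x axis), with 1 row per list, 1 point per gene and a bar at the list's median. Lactating mammary gland (median 2.42), adipocyte (1.57), neutrophil (0.97) and T cell (0.86) lists lie farthest to the right among those with more than 2 genes tested, and oxidative phosphorylation (0.03) lies at 0.

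Genes of glycolysis and of the hypoxia response had small positive values. All 17 genes of glycolysis other than Ldha were positive, where 49.1% of all genes were, with a median of 0.21. Of these, 9 (52.9%) had an unadjusted p under 0.05, against 4.69% of all genes higher at that p. Slc2a1, the glucose transporter GLUT1, was at 437, 389.5, 314 and 177 CPM in the IgG libraries and 742, 324, 578, 405 and 508 CPM in the anti-CTLA-4 libraries, with 0.63 (SE 0.26), and Pgk1, a glycolytic kinase, had 0.33 (SE 0.15). Ldha had 0.26 (SE 0.11, 95% interval 0.03 to 0.49) and Ldhb, the other main subunit, -0.06 (SE 0.20). Of 22 hypoxia genes, 20 were positive (median 0.37) and 8 (36.4%) had an unadjusted p under 0.05, led by Ero1l, an oxidase of protein folding. Ero1l was at 493, 400.0, 302 and 163 CPM in the IgG libraries and 841, 352, 634, 595 and 582 CPM in the anti-CTLA-4 libraries, and Vegfa, the angiogenic growth factor, at 323, 289, 239.8 and 123 CPM in the IgG libraries and 485, 249, 471, 270.4 and 336 CPM in the anti-CTLA-4 libraries. In both genes IgG replicate 5 was the lowest library of all and anti-CTLA-4 replicate 1 the highest.

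Both counts turned on single libraries. Without IgG replicate 5 there were 0 glycolysis and 2 hypoxia genes at that p, and without anti-CTLA-4 replicate 1 also 0 and 2. For glycolysis the count was 4 without IgG replicate 4 and 2 without anti-CTLA-4 replicate 3, and without replicates 3 and 5 it was 0 and 4 for the respective lists. Without IgG replicate 1 there were 15 hypoxia genes. Without IgG replicate 5 the medians were 0.12 and 0.24. Oxidative phosphorylation (24 genes, median 0.03), the TCA cycle (15 genes, median -0.02) and cholesterol synthesis (15 genes, median 0.03) had 0 members at that p in either direction.

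Proliferation genes had small negative values. Of 25, 21 had negative values, the median was -0.12, and 3 had an unadjusted p under 0.05, all lower, where 3.33% of all genes were. Mki67, the gene of the Ki-67 antigen, was at 575, 594, 594 and 614 CPM in the IgG libraries and 426, 558, 491, 590.1 and 441 CPM in the anti-CTLA-4 libraries. The IgG libraries lay close together, and 4 of the 5 antibody libraries were below all of them, with -0.25 (SE 0.11, 95% interval -0.48 to -0.01). Mcm7, part of the replication helicase, had -0.20 (SE 0.08), and Bub1b, a spindle checkpoint kinase, -0.19 (SE 0.09). The groups did not overlap for Mcm7, as for 0.716% of all genes on the lower side. The count was 6 without anti-CTLA-4 replicate 2, 5 without anti-CTLA-4 replicate 4 or without replicate 3 of that treatment in LDHA-KD tumours, 0 without anti-CTLA-4 replicate 1, and 1 without IgG replicate 4 or 5, anti-CTLA-4 replicate 5, or anti-CTLA-4 replicates 3 and 5.

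The 12 named genes on the lower side, those with the smallest p at a mean log2 CPM of at least 1, have varied functions. They were chosen from these same libraries, so a lack of overlap between their groups is no separate support. Of all genes, 120 (0.716%) lay lower without overlap. Lrrc8c, a subunit of volume-regulated anion channels (chromosome 5, 105519388 to 105613018, plus strand), was at 76.2, 77.4, 81.2 and 78.9 CPM in the IgG libraries and 57.8, 70.5, 62.2, 68.9 and 63.9 CPM in the anti-CTLA-4 libraries. The difference was small and the groups did not overlap, with -0.28 (SE 0.07, 95% interval -0.42 to -0.13). Ptprv, annotated as a processed transcript related to a receptor phosphatase, was at 4.18, 2.495, 3.003 and 6.84 CPM in the IgG libraries and 1.117, 2.88, 1.17, 2.31 and 1.24 CPM in the anti-CTLA-4 libraries, with overlap and -1.24 (SE 0.31, 95% interval -1.89 to -0.59). Mcam, an adhesion molecule of endothelial and perivascular cells, had -0.26 (SE 0.07) and Zfp326, a zinc finger protein, -0.22 (SE 0.06), both without overlap. Fhod3, a regulator of actin, was at 3.36, 3.37, 3.06 and 4.39 CPM in the IgG libraries and 2.17, 2.58, 2.05, 2.55 and 1.599 CPM in the anti-CTLA-4 libraries, again without overlap, with -0.69 (SE 0.19). Mfap4, a microfibril protein of the matrix, had -1.04 (SE 0.30), and Fxyd6, a regulator of the sodium pump, -0.62 (SE 0.16). Fancm, a DNA repair translocase, had -0.40 (SE 0.11), Lsp1, a leukocyte actin-binding protein, -0.38 (SE 0.10), the ubiquitin ligase G2e3 -0.32 (SE 0.09), the ciliary gene regulator Rfx3 -0.39 (SE 0.11), and Fam198b -0.43 (SE 0.13).

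Tumour cell and stroma lists had medians near 0. Epithelial tumour cell genes had a median of -0.05. Fibroblast and matrix genes had one of -0.14, with 13 of 15 negative, among them Postn, or periostin, at -0.41 (SE 0.17) and the collagen Col1a1 at -0.14 (SE 0.27). The endothelial median was 0.07. Of these 3 lists, 1 member had an unadjusted p under 0.05, which was Postn (6.67% of its list, where 3.33% of all genes were lower). It did not reach that p without IgG replicate 5 or anti-CTLA-4 replicate 1, 3 or 5. Of matrix proteases and their inhibitors, 10 of 12 were positive (median 0.25, and 0.09 without IgG replicate 5). Mmp12, a macrophage elastase, reached that p with 0.82 (SE 0.36), which is 8.33% of the list where 4.69% of all genes were higher. It did not reach it without IgG replicate 5 or anti-CTLA-4 replicate 1 or 5.

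Lists of tissue that may lie around the tumour went in both directions. Skeletal muscle genes were negative in 11 of 12 (median -0.30, and -0.14 without anti-CTLA-4 replicate 5). Tnnt3, a troponin of fast muscle, at -0.73 (SE 0.27), had an unadjusted p under 0.05. It was 1 of 12 (8.33%), where 3.33% of all genes were lower at that p. That count was 3 without anti-CTLA-4 replicate 2, 2 without IgG replicate 5, and 0 without anti-CTLA-4 replicates 3 and 5, when the median was 0.06. Keratinocyte and skin genes were negative in 6 of 8 tested (median -0.40, and 0.55 without IgG replicate 3), with 0 at that p. Adipocyte genes had 9 of 9 tested members at an unadjusted p under 0.05, all higher, where 4.69% of all genes were, with a median of 1.57. In the IgG libraries their summed level was 106.8, 130.0, 124.6 and 253.3 CPM, and in the antibody libraries it was 174.1, 227.0, 443.5, 125.4 and 1035 CPM. Fabp4, the fatty acid carrier of adipocytes, was at 58.8, 54.03, 58.95 and 103 CPM in the IgG libraries and 90.96, 93.9, 189, 70.6 and 458 CPM in the anti-CTLA-4 libraries, and Lep, the hormone leptin, at 0.212, 0.435, 0.298 and 1.43 CPM in the IgG libraries and 0.676, 1.78, 3.11, 0.402 and 9.53 CPM in the anti-CTLA-4 libraries. Replicate 5 with the antibody was the highest library for each, and IgG replicate 5 exceeded 3 of the antibody libraries for Fabp4. Without anti-CTLA-4 replicate 5 the median was 0.73 and 1 member had an unadjusted p under 0.05. Without replicates 3 and 5 they were 0.21 and 0. The count was 3, 5 and 4 without IgG replicates 1, 3 and 4. Milk protein genes of the mammary gland were uneven too. Csn3, kappa casein, was at 3.096, 3.25, 4.98 and 1.85 CPM in the IgG libraries and 15.8, 4.73, 19.4, 0.858 and 55.5 CPM in the anti-CTLA-4 libraries. The median of the 6 tested was 2.42 (1.70 without anti-CTLA-4 replicate 5 and 1.28 without replicates 3 and 5). Of them, 4 (66.7%) had an unadjusted p under 0.05. The count was 2 without IgG replicate 5 or anti-CTLA-4 replicate 5 and 1 without anti-CTLA-4 replicates 3 and 5. Erythroid genes had 3 of 6 tested (50%) at that p (median 0.57). The count was 0 without IgG replicate 5 or without anti-CTLA-4 replicates 3 and 5, 1 without anti-CTLA-4 replicate 1, 3 or 5, and 5 without IgG replicate 3.

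Of 7 lymph node markers, only 2, Cxcl13 and Glycam1, had enough counts to be tested. Cxcl13 is also on the list of lymphocyte chemokines given above, and Glycam1 also on that of milk protein genes. Both were higher at an unadjusted p under 0.05, where 4.69% of all genes were, with 1.58 (SE 0.43) and 1.33 (SE 0.49). Their median was 1.46, and 1.205 without anti-CTLA-4 replicates 3 and 5. The others, Cr2, Fcer2a, Ccl21a, Ccl19 and Madcam1, were at or below 0.208 CPM in every control library. The libraries with the most adipocyte transcript, anti-CTLA-4 replicates 3 and 5, were also those with the most T cell transcript, at 109.9 and 98.6 CPM summed over the T cell list. Anti-CTLA-4 replicates 1, 2 and 4 had 75.7, 76.9 and 58.1 CPM, and the IgG libraries 36.0, 63.9, 49.0 and 44.7 CPM. Milk protein sums were 51.1 CPM in replicate 1 and 51.4 CPM in replicate 3 with the antibody, although their T cell sums differed, and 114.5 CPM in replicate 5. Replicate 4 with the antibody had adipocyte and milk protein sums of 125.4 and 1.42 CPM, within or below the IgG ranges, and its T cell sum lay within the IgG range too. IgG replicate 5 had the highest adipocyte sum after those of anti-CTLA-4 replicates 3 and 5, with a T cell sum of 44.7 CPM. The part of surrounding tissue in the T cell values was not tested.

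**Figure D4:**
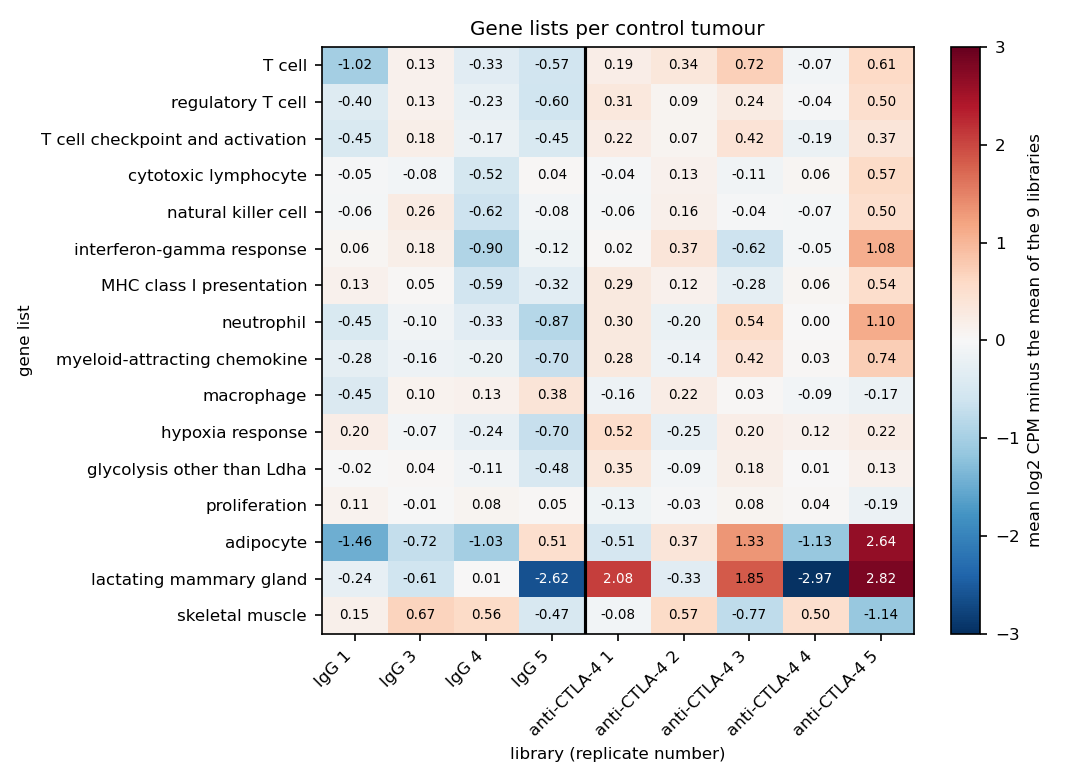
Mean log2 CPM of 16 gene lists (y axis) minus the mean of the 9 control libraries (colour and printed value), with 1 column per library (x axis). Anti-CTLA-4 replicates 3 and 5 have the highest values of the T cell (0.72 and 0.61), neutrophil (0.54 and 1.10) and adipocyte (1.33 and 2.64) lists, and IgG replicate 5 has the lowest of hypoxia and glycolysis.

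The same treatment was compared in LDHA-KD tumours, with 5 libraries per group and no library in common with the control tumours. There too edgeR called 0 genes, with 1987 (11.9%) at an unadjusted p under 0.05, 1372 (8.18%) higher and 615 (3.67%) lower, and DESeq2 called 50. Of the 787 genes higher at that p in control tumours, 694 (88.2%) were also positive in LDHA-KD tumours, where 66.7% of all genes had the same sign in both. For 254 (32.3%) the unadjusted p was under 0.05 in the same direction in LDHA-KD tumours, and for 2 in the opposite. Of the 559 lower genes, 481 (86.0%) had the same sign and 92 (16.5%) reached that p in the same direction. Among the 12 named genes on the higher side, 11 were positive in LDHA-KD tumours and 6 reached that p, and of the 12 on the lower side 9 were negative and 0 reached it.

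Single genes differed in how alike they were. Ctla4 had 0.80 (SE 0.19) in LDHA-KD tumours against 0.77 in control tumours. Icos had 0.77 (SE 0.23) against 1.14. Trbc2 and Cd3d had 0.44 (SE 0.24) and 0.57 (SE 0.22) against 1.47 and 1.32, and the T cell list had a median of 0.52 against 0.86. The fitted difference between tumour types, LDHA-KD minus control, was -1.03 (SE 0.36) for Trbc2 and -0.75 (SE 0.33) for Cd3d. Neither passed (edgeR adjusted p = 0.9998 for both). Both genes were picked for their small p in control tumours, a choice that favours larger values there than in LDHA-KD tumours. The neutrophil median was 0.82 against 0.97, and the adipocyte median 0.16 against 1.57. Lep, for example, had 0.16 (SE 0.70) against 2.38. The granzyme genes Gzme and Gzmf, negative in control tumours, were positive in LDHA-KD tumours, with 1.01 against -0.56 for Gzme and 1.51 against -0.55 for Gzmf. Neither difference passed, since edgeR called 0 genes for the difference between tumour types.

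**Figure D5:**
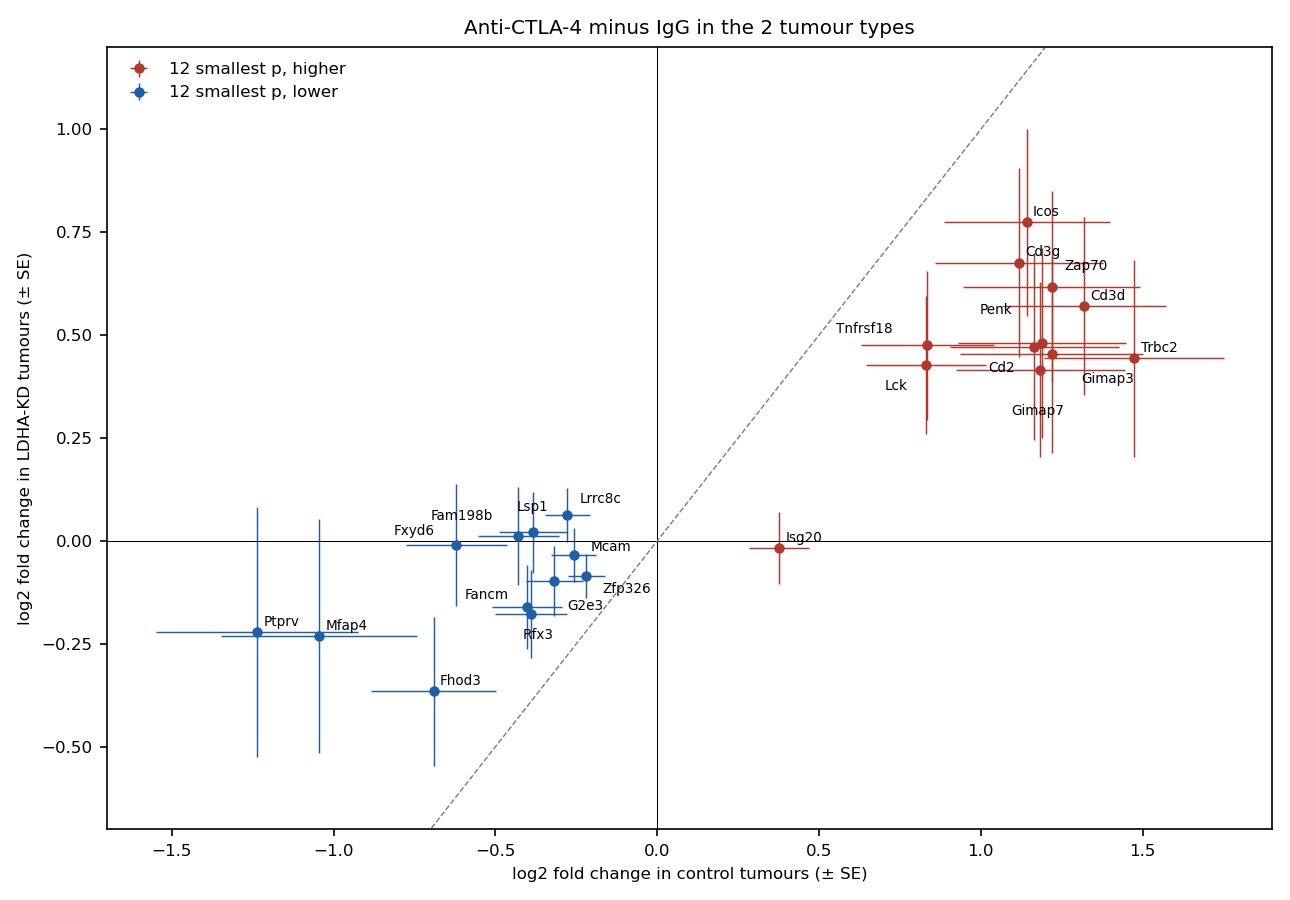
Log2 fold change of anti-CTLA-4 against IgG in control tumours (x axis) against that in LDHA-KD tumours (y axis), with SE bars, for the 12 named genes in each direction in control tumours, chosen by p at a mean log2 CPM of at least 1. Of the 12 higher genes, 11 lie above 0 in both, all below the dashed line of equal change. The genes were chosen for their values on the x axis.

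No gene passed the test of the difference between tumour types in edgeR, and 415 (2.48%) had an unadjusted p under 0.05. The smallest p belonged to Stc1, the gene of the secreted protein stanniocalcin 1. It was at 67.1, 62.1, 57.7 and 72.5 CPM in the IgG libraries and 48.6, 58.1, 42.3, 57.8 and 50.4 CPM in the anti-CTLA-4 libraries in control tumours, a log2 fold change of -0.33 (SE 0.11), against 0.38 (SE 0.10) in LDHA-KD tumours. Cdh15, a cadherin of muscle precursors, had -0.62 (SE 0.20) against 0.65 (SE 0.24), and Fst, or follistatin, an inhibitor of activin, -0.32 (SE 0.14) against 0.42 (SE 0.14). Rarb, a retinoic acid receptor, had -0.39 (SE 0.22) against 0.73 (SE 0.22), Wisp1 -0.30 (SE 0.16) against 0.49 (SE 0.15) and Odf3l1 -0.33 (SE 0.18) against 0.82 (SE 0.25). In the other direction, Isg20 had 0.38 (SE 0.09) against -0.02 (SE 0.09), Ccdc38 0.46 (SE 0.19) against -0.46 (SE 0.17), and the cold-inducible RNA-binding protein gene Cirbp 0.00 (SE 0.10) against -0.47 (SE 0.10). Mkln1os, an antisense transcript counted without a stated strand setting, and Lyzl4 were under 0.22 CPM in every control library. The edgeR adjusted p was 0.9998 for each of these differences.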

How the data were processed

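RNA of 19 tumour samples was counted per gene. The authors deposited raw counts per gene, with summary lines of the form HTSeq writes. The submitters' processing notes name HTSeq 0.5.3, Picard 1.124 and the build mm10, without their roles. The library kit is stranded, per the labels' protocols. The aligner, the annotation and the strand setting of the counting are not given in the sources used here, so overlapping, antisense and near-identical genes may share or lose reads. Groups followed the labels. Gene positions come from GENCODE M21 (GRCm38), where 46488 of 46983 gene identifiers were found. A count of 3 in a library corresponds to 0.0704 to 0.0865 CPM in the control libraries, for counting error only, since reads carry no molecular identifiers.

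R 4.3.3 and edgeR 4.0.16 were used on all 19 libraries, with 5 summary lines left out, genes filtered by filterByExpr, TMM scaling and 1 coefficient per group. Contrasts were tested with the quasi-likelihood F test, Benjamini-Hochberg adjustment over 16763 genes and a threshold of 0.05. Intervals of log2 fold changes are at 95%. The fit was tested on simulated data with a fixed spread and changes larger than most given here. That run does not show whether changes of the sizes given here would be found. No pair of libraries within a group was a copy (lowest chi-square per gene 5.40). Alternatives were DESeq2 1.42.0, limma voom 3.58.1, other scalings and filters, a replicate block and leaving out libraries. Libraries were left out singly, and anti-CTLA-4 replicates 3 and 5 also as a pair. That pair lay highest on the first principal component and in the T cell, neutrophil and adipocyte lists. Leaving it out is therefore not an independent check of those lists. Figures used matplotlib 3.10.9.

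The comparison, the 44 gene lists (553 symbols) and the tests were chosen with earlier results of these data known. A further list, of GIMAP genes, and the sums of receptor segments were added after seeing the data. Lists are described by counts and medians, without a test. Members of a list can vary together across the same libraries, so a share of members is not a count of independent results. Named genes were 8 given in any case (Ctla4, Foxp3, Cd4, Cd8a, Ifng, Gzmb, Ldha and Ldhb), up to 12 per direction past the threshold, filled up by smallest p from genes whose mean log2 CPM was 1 or more, leaving out predicted genes, RIKEN clones and pseudogenes, up to 3 members of each list with the smallest p, and the 6 smallest p per direction of the difference between tumour types. Some genes that the rule names are not reported here. Other list members are named as examples and were chosen after their values were seen.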

Additional observations from a re-analysis of the deposited data

Results flagged for a closer look

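Of 324 groups of libraries examined, 19 had a library far from the others of its group, and chance alone flags about 1 in 20. In anti-CTLA-4 replicate 5, 6 genes were far above the other 4 antibody libraries. Ctla4 was at 8.63 CPM against 5.38 to 6.25 CPM, Cd274 at 129.8 against 55.9 to 70.7, Ido1 at 14.7 against 2.63 to 5.08, Igkc at 7.60 against 0.885 to 2.57, Jchain at 1.84 against 0.235 to 0.493 and Cd79b at 1.03 against 0.402 to 0.529. Ndufa1 was low in anti-CTLA-4 replicate 2, at 55.7 CPM against 69.5 to 74.4, and Dsg1a was high in replicate 4, at 0.349 CPM against at most 0.0702.

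In IgG replicate 5, Cx3cr1 stood at 59.5 CPM against 8.81 to 9.89, Lum at 103.8 against 54.9 to 61.5 and Fabp4 at 103.4 against 54.0 to 59.0, while S100a9 was low at 143.8 against 211.9 to 223.3. In IgG replicate 1, Vcan was low at 34.6 CPM against 71.2 to 75.5, Kit at 8.15 against 12.3 to 13.0 and Pdgfra at 84.2 against 119.1 to 121.0, and Cox5a was high at 119.4 against 83.2 to 86.7. Idh2 was low in IgG replicate 3, at 114.6 CPM against 131.3 to 134.0, and Dsg1a was high there, at 1.33 against at most 0.0794. Ifng was low in IgG replicate 4, at 0.298 CPM against 0.714 to 0.754.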

How the results depend on the processing

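With edgeR, 0 genes were called in control tumours under every scaling, filter and left-out library, and the smallest adjusted p ranged from 0.0554 (without IgG replicate 3) to 0.9998 (without anti-CTLA-4 replicates 3 and 5). DESeq2 called 11 genes higher. In LDHA-KD tumours DESeq2 called 50 genes, and leaving out 1 library gave 0 to 1 with edgeR. The difference between tumour types gave 0 throughout. With the replicate block, 0 genes were called (smallest adjusted p 0.0564), with 1337 higher and 1167 lower at an unadjusted p under 0.05. Whether libraries of the same number belong together cannot be decided from so few. Same-numbered control libraries had correlations of 0.39, 0.10, -0.21 and 0.12, and 1 of 4 matched its own number best. On the second principal component, with 21.6% of the variance, the libraries numbered 1 lay lowest, at -38.6 with IgG and -28.9 with anti-CTLA-4.

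The counts at an unadjusted p under 0.05 (787 higher, 559 lower) were 210 and 183 without anti-CTLA-4 replicates 3 and 5. Higher genes numbered 485 without IgG replicate 5, 434 without anti-CTLA-4 replicate 5 and 1194 without anti-CTLA-4 replicate 2. Lower genes ranged from 228 (without IgG replicate 5) to 1103 (without IgG replicate 1), with 271, 1009, 346, 892 and 311 without anti-CTLA-4 replicates 1 to 5. The cause was not tested. The block or a fit on control tumours alone also gave 13 and 12 neutrophil genes against 7, and the latter 3 glycolysis, 4 hypoxia and 5 adipocyte genes against 9, 8 and 9.

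Of 159 named genes, 8 changed sign in some alternative, each with a value near 0 or a low level. With 1 library left out, Ldhb had -0.18 to 0.0297, Kit -0.069 to 0.14, Ivl -2.11 to 0.22, Dsg1a -2.80 to 1.85, Cirbp -0.062 to 0.059 and Lyzl4 -0.074 to 0.36. Without anti-CTLA-4 replicates 3 and 5, Iglc2 had -0.54, Kit -0.0061 and mt-Nd6 -0.0017. Cirbp had -0.0019 in control tumours alone, -0.0033 with limma voom and -0.023 with the replicate block, Lyzl4 -0.095 with the replicate block and Dsg1a 0.11 with limma voom. Genes under about 0.1 CPM rest on a few counts, so differences in them were not detectable at this depth.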
